A study of Mus musculus with 8 samples.

Results

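The 32 endothelial identity genes are genes that mark the cells lining blood vessels, among them junction proteins, vascular receptors, surface and matrix proteins, lipid and water transporters, the venous products Vwf and Plvap, and transcription factors. They were taken by name from a list of 32. All 32 were found once among the 38293 gene identifiers of the deposited count table, and all passed the filter on low counts that left 13972 genes. The polyA RNA came from left ventricles of C57BL/6J mice after ischemia-reperfusion, made by tying off the left anterior descending artery of the heart and letting blood return. For 4 libraries the heart muscle received 2 injections, 10 µl each, of Upy-PEG, a hydrogel used for local delivery, carrying antimiR-195, which is directed against the small regulatory RNA miR-195. In the other 4 the same injured strain had received the gel with no drug, called hydrogel here. All 8 were taken on day 3 after injury, so all share the injury, the injections and the gel, and no uninjured or uninjected ventricle is among them. The labels do not state that the 8 libraries are 8 separate animals, and a p-value here sets a difference against the spread among libraries, which may be technical.

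Endothelial cells form the inner wall of every vessel, and in the heart most of them line the dense capillary bed between cardiomyocytes. Their shared identity rests on junctions built around VE-cadherin and claudin-5, on receptor systems such as angiopoietin and TIE, BMP9 with ALK1 and endoglin, and on transcription factors of the ETS and SOXF families. Cardiac capillary endothelium is specialised for fatty acid supply, with GPIHBP1 carrying lipoprotein lipase to the lumen and FABP4 binding fatty acids inside the cell, whereas von Willebrand factor and PLVAP are more typical of veins. In whole tissue, fewer endothelial cells and less RNA per endothelial cell cannot be told apart.

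No endothelial gene differed between the groups beyond the spread of the libraries. Tested with edgeR (quasi-likelihood), 0 of the 32 genes had an adjusted p below 0.05, where 0% of all 13972 genes tested passed. At an unadjusted p below 0.05 the count was 0 of 32, beside 178 of all genes tested, or 1.27%. In 0 of 32 genes did the levels of the groups fail to overlap, beside 150 of all genes tested, or 1.07%. The adjusted p was 0.9999 for each of the 32 genes in edgeR's test. Log2 fold changes, antimiR-195 over hydrogel, were positive for 15 genes and negative for 17, between -0.35 for Aqp1 and 0.39 for Cldn5, with a median of -0.02. Over all genes tested the median was 0.01, with 7326 positive. The 95% intervals of 31 of the 32 fold changes lay within 1 log2 unit of 0 on both sides, and those of 19 within 0.5, so for those genes a larger difference lay outside the interval. The widest interval was that of Cldn5, which reached 1.28.

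**Figure D1:**
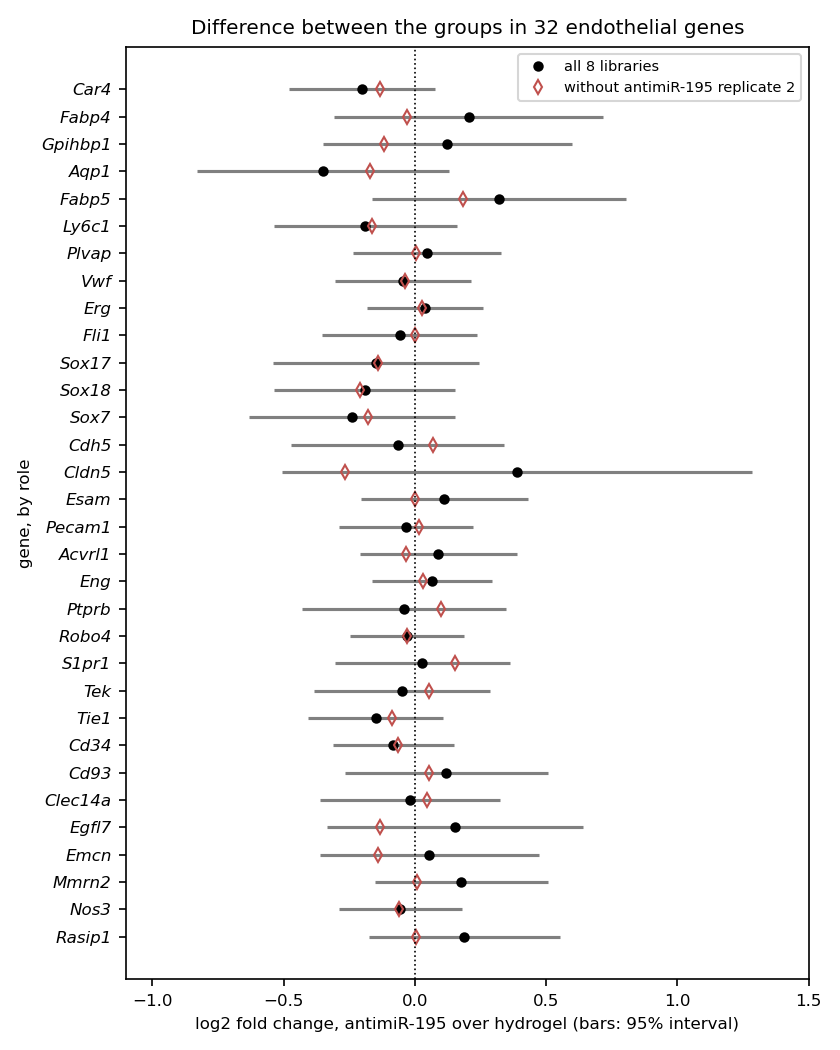
Log2 fold change of the 32 endothelial genes, antimiR-195 over hydrogel (black points, x axis), with 95% intervals from edgeR (bars) and the same value without antimiR-195 replicate 2 (open diamonds), the genes grouped by role down the page. Every bar crosses 0, and the diamond of Cldn5 lies at -0.27 against 0.39 with all libraries.

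The libraries held between 16872968 and 22751753 gene counts, and the fewest counts of any endothelial gene in a library were 178. One library stood apart, antimiR-195 replicate 2. Over all genes tested, its median absolute distance from the gene mean was 0.336 log2 units, against 0.0973 to 0.192 in the other 7 libraries, and its share of alignments to more than 1 place was 47.8%, against 42.1% to 44.5%. It held the highest level of 11 endothelial genes and the lowest of 10, and values without it are given below. In whole ventricle the markers of other cells were present as well: summed CPM of 10 cardiomyocyte genes was 78080 to 83030 in antimiR-195 libraries and 72860 to 84300 in hydrogel libraries, and that of 9 macrophage and monocyte genes was 1251 to 2142 in antimiR-195 libraries and 1488 to 2026 in hydrogel libraries. The defining endothelial genes Pecam1, Cdh5, Tie1, Tek and Erg were detected in all 8 libraries.

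The inhibitor is directed against miR-195, whose sequence is shown because its seed (bases 2 to 8, in capitals) decides which messages it can pair with. The mature sequences of the miR-15 family, from RefSeq on GRCm38.p6, share this seed.
mmu-miR-15a-5p: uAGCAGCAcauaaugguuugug
mmu-miR-15b-5p: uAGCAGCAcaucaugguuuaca
mmu-miR-16-5p: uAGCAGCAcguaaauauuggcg
mmu-miR-195a-5p: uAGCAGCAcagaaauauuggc
A site was a match to bases 2 to 8, or to bases 2 to 7 with an A opposite base 1. In the longest annotated 3′ UTR (GENCODE M21, GRCm38) a site was found in 4 of the 32 endothelial genes, or 12.5%. The share was 28.5% of 12868 genes tested that have such a UTR. The median length of the UTR was 1050 bases in the endothelial genes and 1205 bases in all of those. The 7 sites in the 4 genes are shown with 10 bases on either side where the UTR reaches so far, on GRCm38 and in the sense of the message, with the letters opposite the seed in capitals.
Eng, chr2:32681818-32681844, plus strand: tgcacacccaTGCTGCTtagaagccta
Eng, chr2:32682240-32682266, plus strand: cagttctctcTGCTGCTtgctcatttg
Mmrn2, chr14:34403330-34403356, plus strand: tagatccgccTGCTGCTcttagactga
Pecam1, chr11:106654672-106654698, minus strand: aaatacacagTGCTGCTcaggtttgcc
Ptprb, chr10:116386802-116386828, plus strand: tccccttgctTGCTGCTgcttcctggt
Ptprb, chr10:116386805-116386831, plus strand: ccttgcttgcTGCTGCTtcctggtgaa
Ptprb, chr10:116389511-116389535, plus strand: ggaataaaacTGCTGCTcattgaaa
The first and second Ptprb sites overlap in a repeat of the same 3 letters, and the third lies at the end of the UTR. All 7 are matches to bases 2 to 8 without an A opposite base 1. The 4 genes with a site had a median log2 fold change of 0.02, with Mmrn2 at 0.18 ± 0.15 (SE), Eng at 0.06 ± 0.10, Pecam1 at -0.03 ± 0.11 and Ptprb at -0.04 ± 0.18. Without antimiR-195 replicate 2, Mmrn2 was at 0.01, Eng at 0.03, Pecam1 at 0.02 and Ptprb at 0.10. The 28 genes without a site had a median of -0.02, with 13 positive. None of the 4 passed the test, and a seed match is a match of letters, not evidence of binding.

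Among junction genes, levels of the core components were close between the groups. Pecam1, an adhesion molecule of endothelial contacts, had 160, 134, 172 and 146 CPM (gene counts scaled to a common library size with TMM factors) in antimiR-195 replicates 1 to 4, against 162, 154, 144 and 166 CPM in hydrogel replicates 1 to 4. Cdh5, which encodes VE-cadherin, had 159, 114, 210 and 180 CPM in antimiR-195 libraries, against 150, 203, 156 and 185 CPM in hydrogel libraries. Both ranges overlapped over most of their width, and for both the lowest value was that of antimiR-195 replicate 2. The Cdh5 log2 fold change was -0.07 ± 0.18 with all libraries and 0.07 without that replicate. Esam, another adhesion molecule of these junctions, had 52.3 to 75.5 CPM in antimiR-195 libraries and 52.1 to 63.8 CPM in hydrogel libraries.

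Cldn5, the tight junction claudin of endothelium, had the largest spread of all 32 genes. It was measured at 16.2, 41.6, 12.0 and 10.1 CPM in antimiR-195 libraries, against 12.5, 20.7, 16.8 and 11.1 CPM in hydrogel libraries. A single library, antimiR-195 replicate 2, lay above all others, and the other 3 antimiR-195 libraries lay within or just under the hydrogel range. Its log2 fold change of 0.39 ± 0.41 became -0.27 without that library.

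The 7 receptor genes lay between -0.15 and 0.09 in log2 fold change, and 4 of them were negative. Tie1, an orphan receptor partner of TEK, had 94.3, 77.8, 99.3 and 96.7 CPM in antimiR-195 libraries, against 96.1, 113, 104 and 95.3 CPM in hydrogel libraries. Its log2 fold change was -0.15 ± 0.12, with an adjusted p of 0.9999 in edgeR's test, and -0.0865 without antimiR-195 replicate 2. Of the antimiR-195 libraries, replicate 2 was the lowest, and replicates 3 and 4 lay within the hydrogel range. Tek, the angiopoietin receptor, had 34.4 to 56.7 CPM in antimiR-195 libraries and 41.1 to 52.6 CPM in hydrogel libraries. Ptprb, the phosphatase VE-PTP that acts on TEK, had 66.2 to 126 CPM in antimiR-195 libraries and 96.7 to 108 CPM in hydrogel libraries. For both, the antimiR-195 libraries reached past the hydrogel range on both sides. S1pr1, the sphingosine 1-phosphate receptor that tightens the barrier, had 43.5 to 71.9 CPM in antimiR-195 libraries and 56.3 to 64.2 CPM in hydrogel libraries. Tek, Ptprb and S1pr1, like Tie1, were each lowest in antimiR-195 replicate 2.

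The BMP9 receptors and Robo4 also overlapped between the groups. Eng, encoding the co-receptor endoglin, had 162 to 181 CPM in antimiR-195 libraries and 152 to 176 CPM in hydrogel libraries. Acvrl1, encoding ALK1, had 38.1 to 53.4 CPM in antimiR-195 libraries and 36.7 to 47.3 CPM in hydrogel libraries. Robo4, a vascular roundabout receptor, had the second smallest spread of the 32 genes, with 31.8 to 35.5 CPM in antimiR-195 libraries and 30.9 to 35.2 CPM in hydrogel libraries. Its log2 fold change was -0.03 ± 0.10. Eng, with 2888 to 3567 counts in each library, overlaps Fpgs on the opposite strand, which held 1400 counts over all libraries. Because the strand setting of the counting is not given in the sources used here, reads of the overlap cannot be assigned.

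Surface and matrix genes held 4 positive and 2 negative fold changes. Mmrn2, a matrix protein that binds CLEC14A and CD93, had 43.1, 65.0, 45.6 and 44.7 CPM in antimiR-195 libraries, against 41.4, 41.6, 50.9 and 41.7 CPM in hydrogel libraries. One library of each group was high, antimiR-195 replicate 2 and hydrogel replicate 3, and the log2 fold change was 0.18 ± 0.15 with all libraries and 0.01 without antimiR-195 replicate 2. Its partners Clec14a and Cd93 had 15.6 to 21.4 and 95.1 to 133 CPM in antimiR-195 libraries, and 14.6 to 22.0 and 78.7 to 131 CPM in hydrogel libraries. Emcn, the sialomucin endomucin, had 49.7 to 80.7 CPM in antimiR-195 libraries and 47.2 to 71.0 CPM in hydrogel libraries. Cd34, a sialomucin shared with progenitor cells, had 127 to 144 CPM in antimiR-195 libraries and 130 to 151 CPM in hydrogel libraries. Egfl7, a secreted vascular protein whose intron holds the endothelial microRNA miR-126, had 68.9 to 147 CPM in antimiR-195 libraries and 73.5 to 96.7 CPM in hydrogel libraries. Egfl7, Emcn and Mmrn2 were all highest in antimiR-195 replicate 2. Egfl7, with 1151 to 2681 counts in each library, overlaps Agpat2 on the opposite strand, which held 5938 counts over all libraries. Egfl7 is uncertain for the same reason as Eng.

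The intracellular members were close as well. Nos3, the endothelial nitric oxide synthase, had 33.1 to 35.5 CPM in antimiR-195 libraries and 31.8 to 40.2 CPM in hydrogel libraries. It overlaps Atg9b on the opposite strand, which held 178 counts over all libraries, and is uncertain like Eng. Rasip1, a RAS-binding protein of vascular lumen formation, had 42.7, 60.3, 34.3 and 42.8 CPM in antimiR-195 libraries, against 42.6, 38.0, 42.8 and 34.7 CPM in hydrogel libraries. AntimiR-195 replicate 2 was far above the other 7 libraries for Rasip1, and the log2 fold change of 0.19 ± 0.16 became 0.005 without it. Rasip1 overlaps Izumo1 on the same strand, which held 18 counts over all libraries.

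The capillary genes Gpihbp1 and Fabp4 had positive fold changes and Car4 a negative one with all libraries, and all 3 were negative without antimiR-195 replicate 2. Gpihbp1, on chromosome 15 at 75596628 to 75599481, had 49.2, 64.6, 29.6 and 35.8 CPM in antimiR-195 libraries, against 36.6, 38.1, 45.8 and 44.2 CPM in hydrogel libraries. Fabp4, on chromosome 3 at 10204088 to 10208576, had 842, 1117, 551 and 609 CPM in antimiR-195 libraries, against 732, 586, 842 and 546 CPM in hydrogel libraries. For both genes antimiR-195 replicates 1 and 2 were higher than antimiR-195 replicates 3 and 4. The antimiR-195 libraries reached past the hydrogel range on both sides for Gpihbp1, while for Fabp4 replicate 2 was the highest of all libraries and hydrogel replicate 4 the lowest. Gpihbp1 averaged 44.8 ± 15.5 CPM in antimiR-195 libraries and 41.2 ± 4.47 CPM in hydrogel libraries (SD, n = 4 each), a log2 fold change of 0.12 ± 0.22, which was -0.12 without antimiR-195 replicate 2. Fabp4 averaged 780 ± 257 CPM in antimiR-195 libraries and 677 ± 136 CPM in hydrogel libraries, a log2 fold change of 0.20 ± 0.23, which was -0.03 without that replicate. Car4, the membrane-anchored carbonic anhydrase IV on chromosome 11 at 84957786 to 84966044, had 19.9, 14.5, 17.8 and 17.6 CPM in antimiR-195 libraries, against 19.5, 19.8, 22.4 and 18.6 CPM in hydrogel libraries. Only antimiR-195 replicate 1 reached the hydrogel range, and the log2 fold change of -0.20 ± 0.13 did not pass the test (edgeR, adjusted p = 0.9999). It was -0.13 without antimiR-195 replicate 2.

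Fabp4 is also made by adipocytes and macrophages. Of 5 adipocyte markers, 0 passed the filter on low counts. Their summed level was 0.479 to 1.48 CPM in antimiR-195 libraries and 0.952 to 1.78 CPM in hydrogel libraries, with Adipoq at most 0.93 CPM and Lep at 0 in all 4 antimiR-195 libraries and in 2 hydrogel libraries. Of 9 macrophage and monocyte genes, all 9 were tested, and their summed level was 2142 CPM in antimiR-195 replicate 2, where Fabp4 was highest, and 2026 CPM in hydrogel replicate 4, where Fabp4 was lowest. The part of these cells in the Fabp4 values was not tested.

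The other transport genes held the largest negative fold change and one of the larger positive ones. Aqp1, the water channel of capillary endothelium and of red cells, had 200, 108, 186 and 253 CPM in antimiR-195 libraries, against 206, 243, 253 and 250 CPM in hydrogel libraries. Of the antimiR-195 libraries, 3 were below the hydrogel range and replicate 4 was within it. Aqp1 averaged 187 ± 59.9 CPM in antimiR-195 libraries and 238 ± 21.5 CPM in hydrogel libraries (SD, n = 4 each), and its log2 fold change of -0.35 ± 0.22 was -0.17 without antimiR-195 replicate 2. The 6 erythroid genes, of which 5 were tested, summed to 510 to 1925 CPM in antimiR-195 libraries and 404 to 1534 CPM in hydrogel libraries. Their sum was highest in antimiR-195 replicate 2, where Aqp1 was lowest, and their part in the Aqp1 values was not tested.

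Fabp5, a second fatty acid binding protein, had 48.7, 61.4, 40.5 and 44.4 CPM in antimiR-195 libraries, against 41.8, 34.9, 25.1 and 54.5 CPM in hydrogel libraries. The low end was hydrogel replicate 3, the library with the highest levels of Sox7, Sox17 and Sox18, and the groups overlapped. Mean log2 CPM of the 9 macrophage and monocyte genes was also lowest there, 5.75. It was highest in hydrogel replicate 4, 6.35, and antimiR-195 replicate 2, 6.32, where Fabp5 was highest. Their summed CPM was lowest in antimiR-195 replicate 3, 1251. The part of these cells in the Fabp5 values was not tested. The Fabp5 log2 fold change was 0.32 ± 0.22, and 0.18 without antimiR-195 replicate 2. Ly6c1, a GPI-anchored antigen of capillary endothelium, had 94.4, 85.9, 79.7 and 111 CPM in antimiR-195 libraries, against 118, 78.6, 120 and 107 CPM in hydrogel libraries. It has a near-identical neighbour, Ly6c2, so its counts are uncertain, and with a log2 fold change of -0.19 ± 0.16 it did not pass the test.

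The venous genes Vwf and Plvap had fold changes close to 0. Vwf, the clotting glycoprotein stored in endothelial granules, lies on chromosome 6 at 125546774 to 125686679. It had 50.4, 54.9, 62.4 and 59.2 CPM in antimiR-195 libraries, against 51.9, 64.0, 54.5 and 63.8 CPM in hydrogel libraries. Plvap, which forms the diaphragms of caveolae and fenestrae, lies on chromosome 8 at 71497765 to 71511752. It had 30.4, 28.8, 22.1 and 27.0 CPM in antimiR-195 libraries, against 27.7, 26.4, 22.9 and 28.1 CPM in hydrogel libraries. The groups overlapped almost wholly for both genes, and the log2 fold changes were -0.05 ± 0.12 for Vwf and 0.04 ± 0.13 for Plvap, or -0.04 and 0.005 without antimiR-195 replicate 2. Vwf is also made by megakaryocytes and carried in platelets. The 5 platelet genes, of which 4 were tested, summed to 63.3 to 187 CPM in antimiR-195 libraries and 86.2 to 106 CPM in hydrogel libraries, and their highest sum was in antimiR-195 replicate 2, where Vwf was at 54.9 CPM.

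Of the 5 transcription factor genes, 1 had a positive and 4 a negative fold change, and none passed the test. Erg, an ETS factor that maintains endothelial gene expression, is on chromosome 16 at 95359169 to 95586593. It had 23.7, 25.2, 27.4 and 24.1 CPM in antimiR-195 libraries, against 24.5, 24.2, 25.6 and 23.4 CPM in hydrogel libraries. Its highest level was 1.17 times its lowest, and its SD on the log2 scale was the smallest of the 32 genes, 0.07. Fli1, a related ETS factor also used in blood cells, is on chromosome 9 at 32422204 to 32542861. It had 22.2, 19.0, 25.7 and 21.9 CPM in antimiR-195 libraries, against 20.5, 26.3, 21.0 and 24.8 CPM in hydrogel libraries. Log2 fold changes were 0.04 ± 0.10 for Erg and -0.06 ± 0.13 for Fli1, or 0.03 and 0.0007 without antimiR-195 replicate 2, and both pairs of groups overlapped.

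The 3 SOXF genes, which act together in vessel and lymphatic development, had negative fold changes that did not pass the test. Sox7, on chromosome 14 at 63943673 to 63950732, had 18.9, 14.7, 14.5 and 21.1 CPM in antimiR-195 libraries, against 21.7, 15.9, 25.4 and 18.5 CPM in hydrogel libraries. Sox17, on chromosome 1 at 4490931 to 4497354, had 17.7, 16.8, 15.5 and 20.2 CPM in antimiR-195 libraries, against 22.1, 13.3, 23.8 and 18.6 CPM in hydrogel libraries. Sox18, on chromosome 2 at 181669836 to 181671640, had 61.7, 54.4, 45.2 and 53.3 CPM in antimiR-195 libraries, against 67.3, 60.5, 72.0 and 45.3 CPM in hydrogel libraries. Hydrogel replicates 1 and 3 were the highest for all 3 genes, while hydrogel replicate 2 for Sox17 and hydrogel replicate 4 for Sox18 lay in or under the antimiR-195 range. Log2 fold changes were -0.24 ± 0.18 for Sox7, -0.15 ± 0.18 for Sox17 and -0.19 ± 0.16 for Sox18, each with an adjusted p of 0.9999 in edgeR's test. Without antimiR-195 replicate 2 they were -0.18, -0.14 and -0.21. The 3 were looked at as a family after their values were seen.

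**Figure D2:**
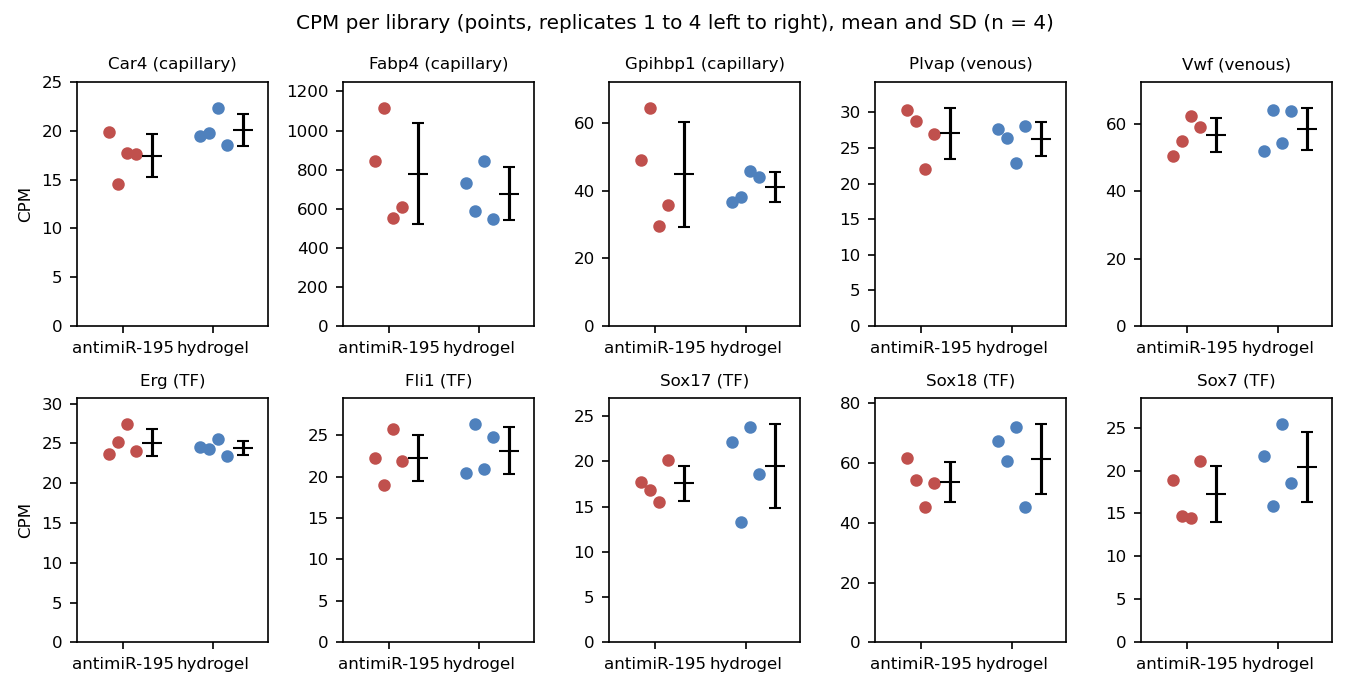
CPM of the 3 capillary, 2 venous and 5 transcription factor (TF) genes in each library, antimiR-195 (red) left and hydrogel (blue) right, with the mean and SD of 4 libraries as black bars. The groups overlap in all 10 genes, and the antimiR-195 bars of Fabp4 and Gpihbp1 are wide, 780 ± 257 and 44.8 ± 15.5 CPM.

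Set side by side, the differences between the classes overlapped between the groups. The mean log2 CPM of the capillary genes minus that of the venous genes was 1.26, 1.35, 0.83 and 0.86 in antimiR-195 libraries, against 1.09, 0.89, 1.43 and 0.85 in hydrogel libraries. The averages were 1.08 ± 0.27 in antimiR-195 libraries and 1.07 ± 0.26 in hydrogel libraries (SD, n = 4 each), and the libraries of both groups lay in the same range. Venous minus transcription factor genes averaged 0.67 ± 0.08 in antimiR-195 libraries and 0.56 ± 0.26 in hydrogel libraries. Capillary minus transcription factor genes averaged 1.75 ± 0.32 in antimiR-195 libraries and 1.63 ± 0.06 in hydrogel libraries. Both differences were smaller than the larger SD beside them. The median log2 fold change was 0.12 for the capillary, -0.0007 for the venous and -0.15 for the transcription factor genes. Without antimiR-195 replicate 2 the capillary median was -0.12.

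Many endothelial genes lay at an extreme in the same few libraries. In antimiR-195 replicate 2 the 32 genes went both ways: Cldn5, Egfl7, Fabp4, Gpihbp1, Rasip1, Emcn and Mmrn2 were at their highest, and Aqp1, Ptprb, Cdh5, S1pr1, Tek and Tie1 at their lowest. In antimiR-195 replicate 3, 7 genes were at their highest and 6 at their lowest. The counts were 5 and 5 in hydrogel replicate 2, and 7 and 2 in hydrogel replicate 3. Genes at large lay about as far out in the first 2 of these libraries. The median absolute distance from the gene mean in antimiR-195 replicate 2 was 0.3353 in the 32 genes and 0.3365 in all genes tested. In antimiR-195 replicate 3 it was 0.1918 and 0.1915, in hydrogel replicate 2 0.1542 and 0.1335, and in hydrogel replicate 3 0.1053 and 0.1509. Over the 8 libraries the SD of log2 CPM had a median of 0.22 in the 32 genes. It was 0.19 in 3187 genes of like level and 0.24 in all genes tested. Without antimiR-195 replicate 2 it was 0.16 in the 32 genes and 0.19 in all genes tested. The mean log2 CPM over all 32 genes was 5.82 ± 0.04 in antimiR-195 libraries and 5.83 ± 0.04 in hydrogel libraries (SD, n = 4 each) and differed by less than that SD.

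**Figure D3:**
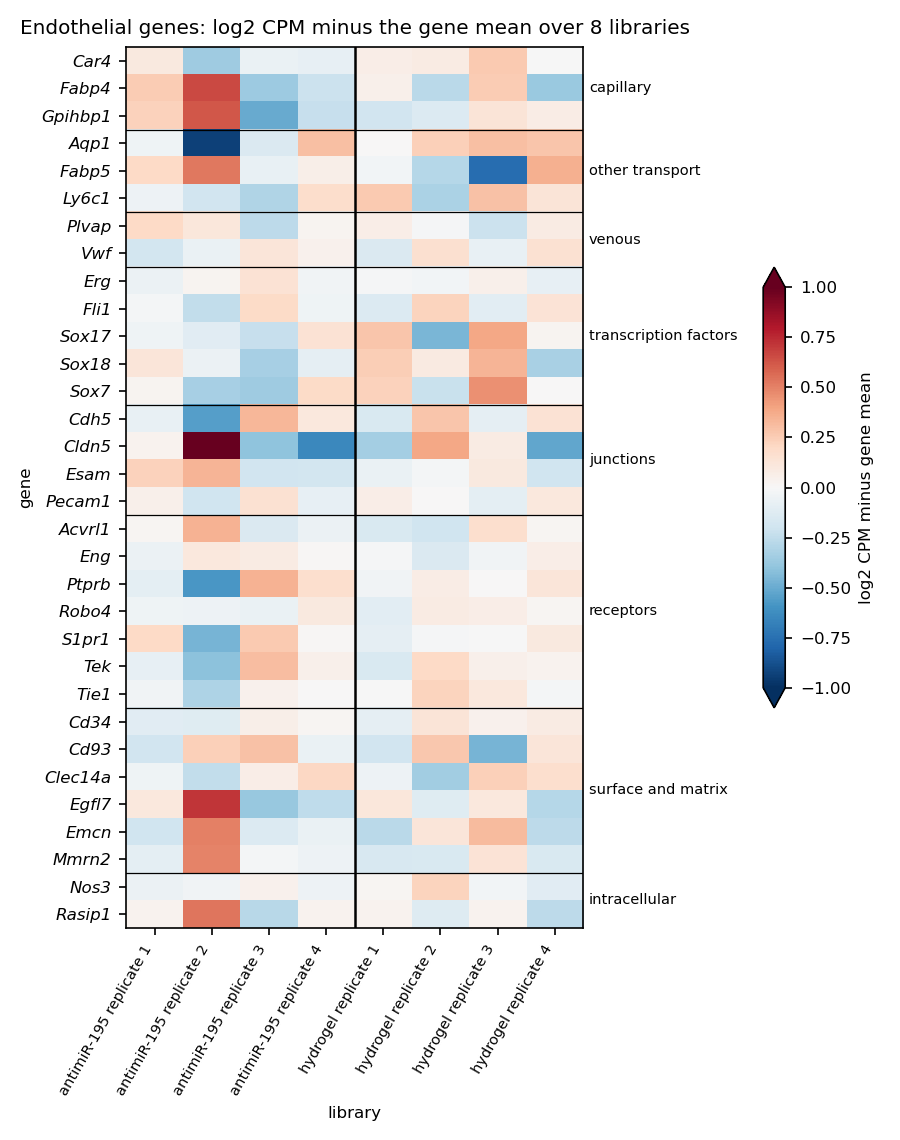
Log2 CPM of each endothelial gene minus its mean over the 8 libraries, genes in rows by role and libraries in columns, antimiR-195 to the left of the line and hydrogel to the right. The strongest colours stand in antimiR-195 replicate 2, the library with the highest level of 11 genes and the lowest of 10, and Cldn5 there lies beyond the colour scale.

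Part of this variation moved with gene length. In antimiR-195 replicate 3 the short endothelial genes were low and the long ones high, with a Spearman correlation of 0.64 between length and deviation from the gene mean across the 32 genes, and 0.55 across all genes tested. In antimiR-195 replicate 1 the correlation was -0.63 across the 32 genes and -0.15 across all genes tested. In antimiR-195 replicate 2 it was -0.20 across the 32 genes and -0.46 across all genes tested. These correlations are across genes within 1 library, and the genes share its depth and preparation, so they are descriptions only. Fabp4 and Gpihbp1, at 637 and 796 bases the shortest of the 32 by lengths from counts and RPKM, were both lowest or next to lowest among antimiR-195 libraries in replicates 3 and 4. The longest 3′ UTR of Gpihbp1 in GENCODE M21 is 1291 bases, more than that length, so the length and RPKM of Gpihbp1 are uncertain. Lengths of the other genes were not checked against their messages, so the RPKM order and the correlations with length share this uncertainty. When the trend on length was removed from each library, the log2 fold change was 0.01 for Gpihbp1, 0.10 for Fabp4 and 0.28 for Cldn5, and 0 of 32 genes passed the threshold. The other genes moved less, with Aqp1 at -0.35 and Fabp5 at 0.33. The median SD of log2 CPM in the 32 genes was 0.21 with the trend removed, against 0.22 before.

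**Figure D4:**
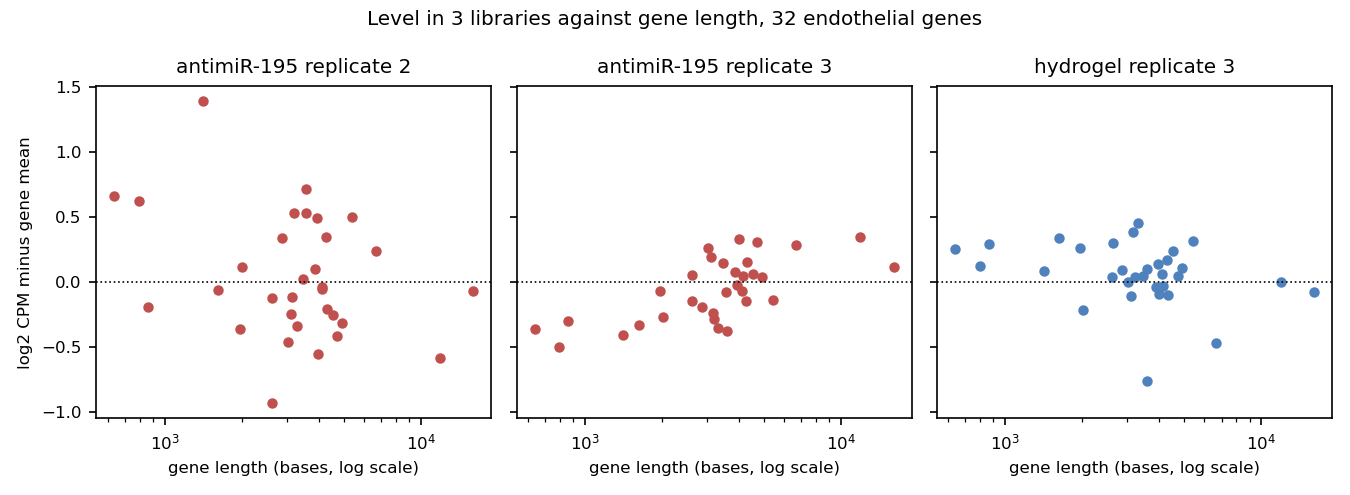
Log2 CPM minus the gene mean over 8 libraries (y axis) against gene length in bases (log scale, x axis) for the 32 endothelial genes in antimiR-195 replicates 2 and 3 (red) and hydrogel replicate 3 (blue). The points climb with length in antimiR-195 replicate 3, with a correlation of 0.64, and scatter widely in antimiR-195 replicate 2.

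Levels between genes can be compared only per length, and on the RPKM scale, reads scaled by gene length and library size, the 32 genes spanned a wide range. Fabp4 stood alone at the top with 1242 ± 438 RPKM in antimiR-195 libraries and 1048 ± 187 RPKM in hydrogel libraries (SD, n = 4 each). Ly6c1 followed with 108 ± 15.03 RPKM in antimiR-195 libraries and 121 ± 21.9 RPKM in hydrogel libraries, and then Aqp1 with 71.4 ± 21.9 RPKM in antimiR-195 libraries and 89.6 ± 7.93 RPKM in hydrogel libraries. The ranges of neighbours in the order overlapped except between Fabp4 and Ly6c1 and between Cd34, at 49.8 to 57.3 RPKM, and Eng, at 38.5 to 48.5 RPKM. Sox18 was the most abundant transcription factor message at 33.5 ± 4.73 RPKM in antimiR-195 libraries and 37.3 ± 6.27 RPKM in hydrogel libraries. Erg, Fli1, Sox17 and Sox7 averaged 5.28 to 7.30 RPKM in antimiR-195 libraries and 6.10 to 7.37 RPKM in hydrogel libraries. Vwf had the lowest RPKM, 3.56 ± 0.26 in antimiR-195 libraries and 3.61 ± 0.44 in hydrogel libraries, with a length of 16064 bases by counts and RPKM. That length was not checked against its message, so its place in the order is uncertain.

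**Figure D5:**
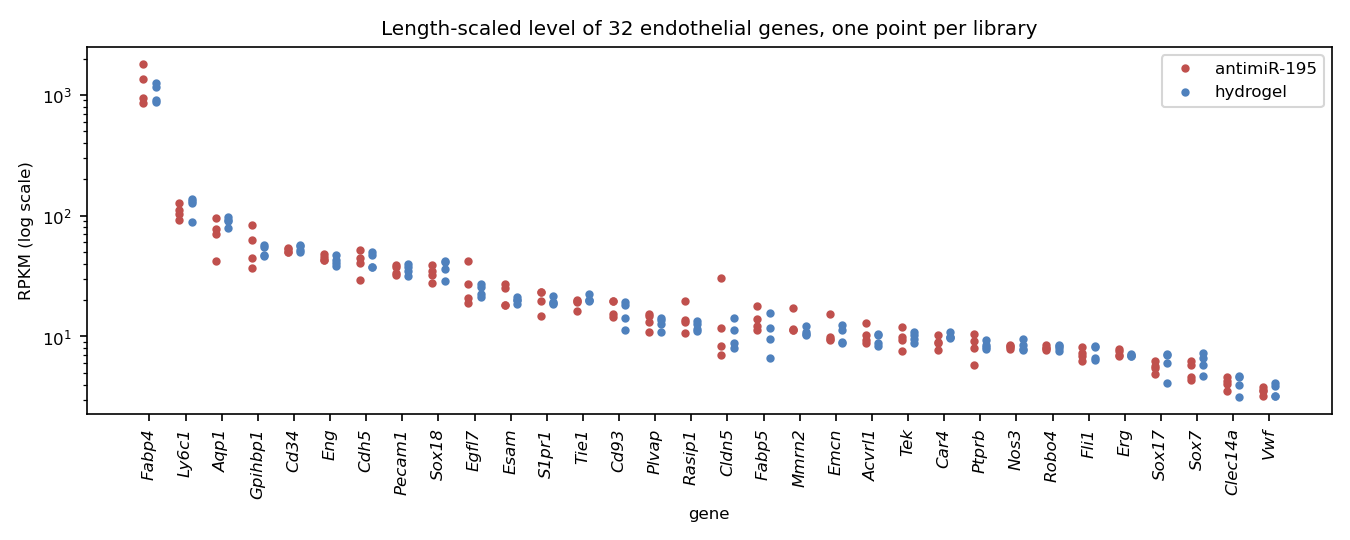
Deposited RPKM (y axis, log scale) of the 32 endothelial genes in order of mean level, one point per library, antimiR-195 (red) left of hydrogel (blue) in each pair. Fabp4 lies above 856 RPKM in every library, and no other gene exceeds 137 RPKM.

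Promoters are shown for the receptors Tek, Tie1 and Robo4, whose windows hold the letters that ETS factors such as ERG and FLI1 bind. Of the 32 genes, 14 had a promoter in the RefSeq table on GRCm38.p6, with 19 windows of 250 bases before and 50 after a start. Each window is printed 5′ to 3′ on the strand of the gene, with matches to CAGGAA on either strand in capitals.
Tek, chr4:94739039-94739338, plus strand: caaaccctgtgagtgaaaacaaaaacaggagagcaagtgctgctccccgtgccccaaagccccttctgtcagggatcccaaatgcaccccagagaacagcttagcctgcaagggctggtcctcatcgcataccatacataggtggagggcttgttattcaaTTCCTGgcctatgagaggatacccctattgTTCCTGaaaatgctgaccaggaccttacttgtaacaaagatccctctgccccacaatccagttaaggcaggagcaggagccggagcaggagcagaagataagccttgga
Tie1, chr4:118489800-118490099, minus strand: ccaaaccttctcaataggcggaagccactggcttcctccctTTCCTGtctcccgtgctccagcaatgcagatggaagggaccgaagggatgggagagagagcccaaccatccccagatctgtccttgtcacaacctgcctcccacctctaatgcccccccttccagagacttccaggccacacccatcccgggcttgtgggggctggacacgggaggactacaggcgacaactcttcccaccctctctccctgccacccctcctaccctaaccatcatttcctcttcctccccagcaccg
Robo4, chr9:37401722-37402021, plus strand: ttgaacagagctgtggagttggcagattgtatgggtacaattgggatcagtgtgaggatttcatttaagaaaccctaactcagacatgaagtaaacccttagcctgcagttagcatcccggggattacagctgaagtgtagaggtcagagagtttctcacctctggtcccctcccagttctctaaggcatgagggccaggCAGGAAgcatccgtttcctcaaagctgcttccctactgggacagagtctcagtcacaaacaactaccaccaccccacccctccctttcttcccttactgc
CAGGAA occurred on either strand in 11 of the 19 endothelial windows, or 57.9%, and in 30.6% of all 32851 windows of this length. CCGGAA occurred in 1 of 19, or 5.26%, against 14.9% of all windows, and that window, of Car4, holds a stretch in which the matches on the 2 strands overlap. The SOX letters ACAAAG occurred in 4 of 19, or 21.1%, against 18.7% of all windows, and the Tek window is one of them. Of the genes with a printed window, Tek had a log2 fold change of -0.05 ± 0.15 (0.05 without antimiR-195 replicate 2), Tie1 -0.15 ± 0.12 and Robo4 -0.03 ± 0.10, and none passed the test. A match is a description of letters and not a bound site.

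Endothelial genes outside the 32 gave like values. Of 63 other endothelial genes in 6 lists, 63 were tested and 0 passed the threshold, with 31 positive and 32 negative fold changes and a median of -0.002. Of 24 further pan-endothelial genes, 10 were positive and 14 negative. Those of smallest p were Procr, the protein C receptor, at 0.48 ± 0.25, Ecscr, an endothelial surface receptor, at 0.35 ± 0.19, and Klf2, the flow-responsive factor, at -0.19 ± 0.13. Without antimiR-195 replicate 2, Procr, which had only 42 to 96 counts in a library, was at 0.26 and Ecscr at 0.11. Of 10 further capillary genes, 5 were positive and 5 negative, with C1qtnf9, a secreted adiponectin relative, at -0.22 ± 0.13, Cxcl12, a chemokine, at 0.20 ± 0.14, and Tcf15, a factor of fatty acid transport endothelium, at -0.30 ± 0.28, which was -0.52 without antimiR-195 replicate 2. These 10 summed to 1732, 1105, 2007 and 1654 CPM in antimiR-195 libraries, against 1677, 1774, 1659 and 1651 CPM in hydrogel libraries. The lowest sum was that of antimiR-195 replicate 2, where the 3 capillary genes described above summed highest, 1196 CPM. Most of each sum was 1 gene. In that library Cd36, among the 10, was at 814 CPM and Fabp4, among the 3, at 1117 CPM. Car4, also among those 3, was at its lowest there, 14.55 CPM. The part of cells other than endothelium in the Cd36 values was not tested. Of 6 further venous genes, 1 was positive and 5 negative, with Ackr1, a chemokine-binding receptor of venules, at -0.46 ± 0.29, Lrg1, a secreted glycoprotein, at -0.38 ± 0.27, and Ephb4, the venous ephrin receptor, at -0.16 ± 0.11. Ackr1 had only 10 to 25 counts in a library. Ackr1 was at -0.70 and Ephb4 at -0.0938 without antimiR-195 replicate 2. None of these passed the test.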

How the data were processed

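TRIzol was used to extract the RNA and a stranded TruSeq kit to build mRNA libraries, per the labels' protocols. STAR, HTSeq and DESeq, and the build GRCm38, are named in the submitters' processing notes; their versions, the annotation release and the strand setting used were not given in the sources. The authors deposited whole-number counts per Ensembl gene and RPKM values for the 8 libraries. Of 38293 identifiers, 36345 had a symbol in the mouse gene name table used, and gene positions are those of GENCODE M21 on GRCm38. HTSeq's summary lines entered neither the library sizes nor the tests. Of uniquely placed reads, in or outside genes, 6.38% to 7.55% lay outside genes and 0.772% to 1.05% in more than 1 gene.

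The drug field of each sample gave its group, and replicates were numbered in accession order, so numbers pair nothing. Total gene counts were 16872968 to 22751753 per library. Counts were filtered (filterByExpr), scaled by TMM (factors 0.953 to 1.04) and tested over all 13972 genes with edgeR 4.0.16 in R 4.3.3 (quasi-likelihood, two-sided, Benjamini-Hochberg, threshold 0.05). The SE of a log2 fold change is its size divided by the square root of the F statistic. CPM were computed from the deposited counts, log2 CPM with a prior count of 2, and gene lengths from counts and RPKM. The test was checked on simulated data. Alternatives were RLE scaling, no filter, DESeq2 1.42.0, limma-voom 3.58.1 with quality weights, each library left out, and removal of a length trend (loess, span 0.5), the last chosen after seeing the data.

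The 32 genes and all lists were chosen with earlier results of these data known. Described in full were the 3 capillary, 2 venous and 5 transcription factor genes and the 6 others of smallest p, and of each other endothelial list the 3 of smallest p. Pecam1, Cdh5 and Cldn5 were also given per library, a choice made after their values were seen.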

Additional observations from a re-analysis of the deposited data

Results flagged for a closer look

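Each group of 4 libraries was checked for a library far from the other 3, in 64 checks over the 32 genes. Of these, 4 stood out, where chance gives about 1 in 20, and the checks share the same 8 libraries. The check was not made over all genes tested, so the 4 are not read as a trait of these genes. Over all genes tested, antimiR-195 replicate 2 lay farthest from the gene mean, at a median absolute distance of 0.3365 log2 units. In antimiR-195 replicate 2, Emcn was at 80.7 CPM, with the nearest other antimiR-195 library at 54.5 CPM. In the same library Mmrn2 was at 65.0 CPM, with the nearest other at 45.6 CPM. In hydrogel replicate 3, Mmrn2 was at 50.9 CPM, with the nearest other hydrogel library at 41.7 CPM. In antimiR-195 replicate 4, Robo4 was at 35.5 CPM, with the nearest other antimiR-195 library at 32.3 CPM.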

How the results depend on the processing

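No endothelial gene and no gene of the whole table was called in any of the 13 alternatives. The counts of all genes at an unadjusted p below 0.05 were 178 with edgeR, 176 with RLE scaling, 428 without a filter, 193 with DESeq2, 333 with limma-voom and 241 with the length trend removed, and 104 to 352 when a library was left out. The smallest adjusted p of an endothelial gene in any alternative was 0.892. Direction was the same in all settings for 13 of the 32 genes and turned in at least 1 for the other 19, with 39 of 416 values turned. No paired analysis was possible because replicate numbers follow accession order and pair no libraries. The limit is the spread of 4 libraries a group: the SE of the log2 fold change was 0.0984 to 0.405, so a small difference was not detectable.

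The median over the 32 genes was -0.02, and ran from -0.0492 without antimiR-195 replicate 3 to 0.0165 without hydrogel replicate 2. The capillary median was 0.12, and ran from -0.12 without antimiR-195 replicate 2 to 0.28 without antimiR-195 replicate 3. The transcription factor median was -0.15, and -0.0255 with limma-voom. The cause was not tested. With limma-voom, which weights libraries by quality, the log2 fold change turned to 0.0565 for Cdh5, -0.0199 for Esam, -0.27 for Cldn5, 0.0431 for Tek, 0.0894 for Ptprb, 0.0243 for Robo4, -0.0256 for Emcn, 0.14 for Clec14a, -0.13 for Egfl7, -0.0856 for Gpihbp1 and -0.0168 for Fabp4.

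With a library left out, genes that turned ran from -0.0944 to 0.0151 (Pecam1), -0.20 to 0.0683 (Cdh5), -0.000550 to 0.19 (Esam), -0.27 to 0.60 (Cldn5), -0.17 to 0.0540 (Tek), -0.18 to 0.10 (Ptprb), -0.0342 to 0.16 (Acvrl1), -0.0584 to 0.15 (S1pr1), -0.14 to 0.18 (Emcn), -0.12 to 0.0636 (Clec14a), -0.13 to 0.28 (Egfl7), -0.10 to 0.0152 (Nos3), -0.12 to 0.28 (Gpihbp1), -0.0305 to 0.34 (Fabp4), -0.11 to 0.00304 (Vwf), -0.0192 to 0.13 (Plvap), -0.00632 to 0.0619 (Erg) and -0.14 to 0.00972 (Fli1).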

Other observations

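Arterial, lymphatic and angiogenic endothelial genes are not among the 32. Of 10 arterial genes, 7 had positive and 3 negative log2 fold changes (antimiR-195 over hydrogel), and 0 passed the threshold in edgeR's test. Unc5b, a netrin receptor, was at 31.1 ± 2.18 CPM in antimiR-195 libraries and 25.8 ± 3.83 CPM in hydrogel libraries (SD, n = 4 each), a log2 fold change of 0.27 ± 0.13. Sema3g, a secreted arterial semaphorin, had 16.9, 14.2, 16.9 and 16.6 CPM in antimiR-195 libraries, against 18.9, 17.3, 17.8 and 18.6 CPM in hydrogel libraries. Its groups did not overlap, as in 1.07% of all genes tested, and its log2 fold change was -0.17 ± 0.11. Bmx, an arterial kinase with only 23 to 46 counts in a library, was at 0.36 ± 0.24.

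Of 7 lymphatic genes, 3 were positive and 4 negative. Lyve1, a hyaluronan receptor also found on macrophages, had 16.9, 9.19, 15.7 and 16.4 CPM in antimiR-195 libraries, against 15.9, 18.5, 22.0 and 21.4 CPM in hydrogel libraries. Its log2 fold change was -0.42 ± 0.19 with all libraries and -0.26 without antimiR-195 replicate 2. Pdpn, a lymphatic surface glycoprotein, was at 0.24 ± 0.19 (0.10 without that replicate) and Flt4 at 0.14 ± 0.14. Of 6 tip cell and angiogenic genes, 5 were positive and 1 negative. Esm1, a proteoglycan of sprouting vessels, was at 2.25 ± 0.50 CPM in antimiR-195 libraries and 1.61 ± 0.61 CPM in hydrogel libraries, a log2 fold change of 0.48 ± 0.29 that was 0.30 without antimiR-195 replicate 2. Angpt2, an angiopoietin that acts on TEK, was at 0.37 ± 0.22, and Cxcr4, the CXCL12 receptor, at -0.31 ± 0.19. None of these genes passed the threshold.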
